A study of Rattus norvegicus with 15 samples.

Results

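The genes of cholesterol and fatty acid synthesis were followed in rat brain microvascular endothelial cell (BMEC) cultures after x-ray exposure. The 32 genes were chosen by name. They were 19 enzymes of the sterol pathway, 7 enzymes of fatty acid synthesis and desaturation, 5 genes of the SREBP system that controls both pathways, and Stard4, which carries cholesterol between membranes. For each gene, the FPKM (fragments mapped to a transcript, scaled to its length and to the size of the library) of all transcripts that carried its name, and of unnamed transcripts in a locus that held only that name, were summed in each library. Of the 32 genes, 31 had a mean of at least 0.5 FPKM over the 15 libraries and were tested among 17895 genes. The remaining one, Acat2, was listed at 0 in 14 of 15 libraries, as described with the mevalonate enzymes.

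The cells were grown from cerebral microvessels of Sprague-Dawley littermates of both sexes, aged 2 to 3 weeks. There were 3 libraries of poly-A RNA in each of 5 groups, namely unexposed control cells labelled as 12 h in culture, and exposed cells taken at 12 h or 24 h from a delivered dose of 5 Gy or 20 Gy. Apart from the x-rays, the control cells were handled like the exposed ones. An unexposed 24 h culture was not analysed here, and at 24 h the effects of exposure and of longer culture cannot be told apart. Depth, read from the steps between low FPKM values, was 5.44 to 7.49 gigabases of aligned sequence per library.

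The endothelial label was not borne out by the defining markers. Of 14 endothelial markers, 13 were in the table. Their summed level was 4.66 to 11.3 FPKM over the 15 libraries, Tie1 and Emcn were at 0 in every library, and Cdh5, Cldn5 and Vwf reached at most 0.275, 0.0328 and 0.110 FPKM. The 4 with a mean of at least 0.5 FPKM were Flt1, Egfl7, Ocln and Kdr. Their highest group means were 4.09, 2.51, 2.08 and 0.812 FPKM. A list of 7 fibroblast and meningeal markers summed to 4163 to 4531 FPKM in the control libraries, 2334 to 3982 (5 Gy) and 3129 to 3940 (20 Gy) at 12 h, and 1265 to 2178 (5 Gy) and 903 to 1673 (20 Gy) at 24 h. Of the pericyte and smooth muscle markers, 4 of 8 had a mean of at least 0.5 FPKM, and the list summed to 91.1 to 99.5 FPKM in the control libraries, 75.7 to 93.1 in the 12 h groups and 39.9 to 65.7 in the 24 h groups. The 6 astrocyte markers summed to 13.3 to 15.3 FPKM in the control and 20.0 to 33.5 in the exposed libraries, mostly through Aldh1l1 (group means 9.52 in the control and 20.8 to 24.1 after exposure), while Slc1a2 and S100b had lower means after exposure and Aqp4 was at 0 throughout. The oligodendrocyte list summed to 20.2 to 28.1 FPKM, nearly all of it Cnp, with Mag and Olig2 at 0, and the neuron list to 3.17 to 12.9 FPKM, mostly Syt1, with Rbfox3 at 0. The microglia list reached at most 0.301 FPKM, with Cx3cr1 at 0. The cultures are therefore called by their label only. The sums of the fibroblast and pericyte lists moved in the same direction as most of the genes described here, but not every member did. At 24 h (5 Gy, then 20 Gy), Pdgfra had means of 60.8 and 51.6 FPKM against 52.1 in the control. Tagln had 25.6 and 36.6 against 36.0. Notch3 had 0.330 and 0.572 against 0.153, but it reached a mean of 0.5 FPKM only through the exposed groups (0.832 and 1.78 at 12 h). It is therefore given as a description only. The remaining members with a mean of at least 0.5 FPKM were lower at 24 h than in the control. The part of these lists in the results was not tested.

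Cholesterol is built from acetyl-CoA through mevalonate, isoprenoid phosphates, squalene and lanosterol, while the same acetyl-CoA, once carboxylated, is elongated by fatty acid synthase and then desaturated. Both routes are transcribed under the SREBP transcription factors, which are held in the endoplasmic reticulum by Scap and the Insig proteins when sterols are plentiful and are released to the nucleus when sterols run low. In the vessels of the brain, which makes nearly all of its own cholesterol, these lipids are part of the membranes of the barrier.

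The sterol and fatty acid genes were lower in the exposed cultures at 12 h and lower again at 24 h, at both doses. A gene was called at a Benjamini-Hochberg adjusted p below 0.05 in limma, fitted over all genes on log2(FPKM + 1), and a change of at least 1.5-fold. At 12 h, 20 of the 31 genes were called lower after 5 Gy, against 4.96% of all genes tested, and none was called higher in limma, against 4.98%. With 20 Gy at 12 h, 23 were called lower, against 3.64% of all genes, and again none higher, against 4.90%. With the unadjusted p, 21 and 25 were lower and 0 and 0 higher. When only transcripts that carry a gene's name were summed, 11 and 12 genes were called lower at 12 h (5 Gy, then 20 Gy), against 3.28% and 2.53% of all genes, and 21 and 20 at 24 h, against 16.7% and 18.2%. With these transcripts the 12 h calls of Hmgcs1, Msmo1, Dhcr7, Stard4, Fasn, Elovl6 and Scd were lost at both doses, those of Idi1 and Fads2 after 5 Gy, and those of Mvk, Sc5d, Srebf1 and Acaca after 20 Gy. Idi1 has no unnamed transcript, so its log2 change stayed at -1.14 and only its adjusted p moved, to 0.0530 in limma. All 3 exposed libraries lay below all 3 control libraries for 26 of the 31 in each of these groups, which was so for 16.9% of all genes after 5 Gy and 17.0% after 20 Gy. At 24 h after 5 Gy, 27 were lower (20.8% of all genes) and 3 higher (Insig2, Tm7sf2 and Ggps1, 20.5%), and at 24 h after 20 Gy, 27 were lower (23.3%) and 2 higher (Insig2 and Tm7sf2, 17.0%). Tm7sf2 passed the minimum on low values only through the exposed groups, so its place in these counts supports nothing. The median log2 fold change of the 31 genes was -0.96 and -1.02 at 12 h and -1.92 and -1.86 at 24 h (5 Gy, then 20 Gy). Over all genes tested it was 0.03 and 0.01 at 12 h and -0.05 and -0.14 at 24 h. In bulk RNA, fewer cells of a type and less RNA per cell cannot be told apart.

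A total of 19 genes were called lower in each of the 4 comparisons with control, against 2.12% of all genes, and they were 11 sterol enzymes, 6 fatty acid enzymes, Insig1 and Stard4. Of these 19, 16 also fell between 12 h and 24 h at both doses. Over all genes tested, 129 of the 379 called lower in all 4 did so, which is 0.721% of the 17895. Taking each dose alone, 21 of the 31 genes were lower at 24 h than at 12 h after 5 Gy (19.3% of all genes) and none was higher in limma (17.1%), and 22 were lower after 20 Gy (22.1%) and none higher (14.1%). With the unadjusted p, 1 gene was higher after 5 Gy and 0 after 20 Gy. The 4 comparisons with control share the same 3 control libraries. The libraries came from cultures of one litter, and the p-values measure the spread between these libraries.

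**Figure D1:**
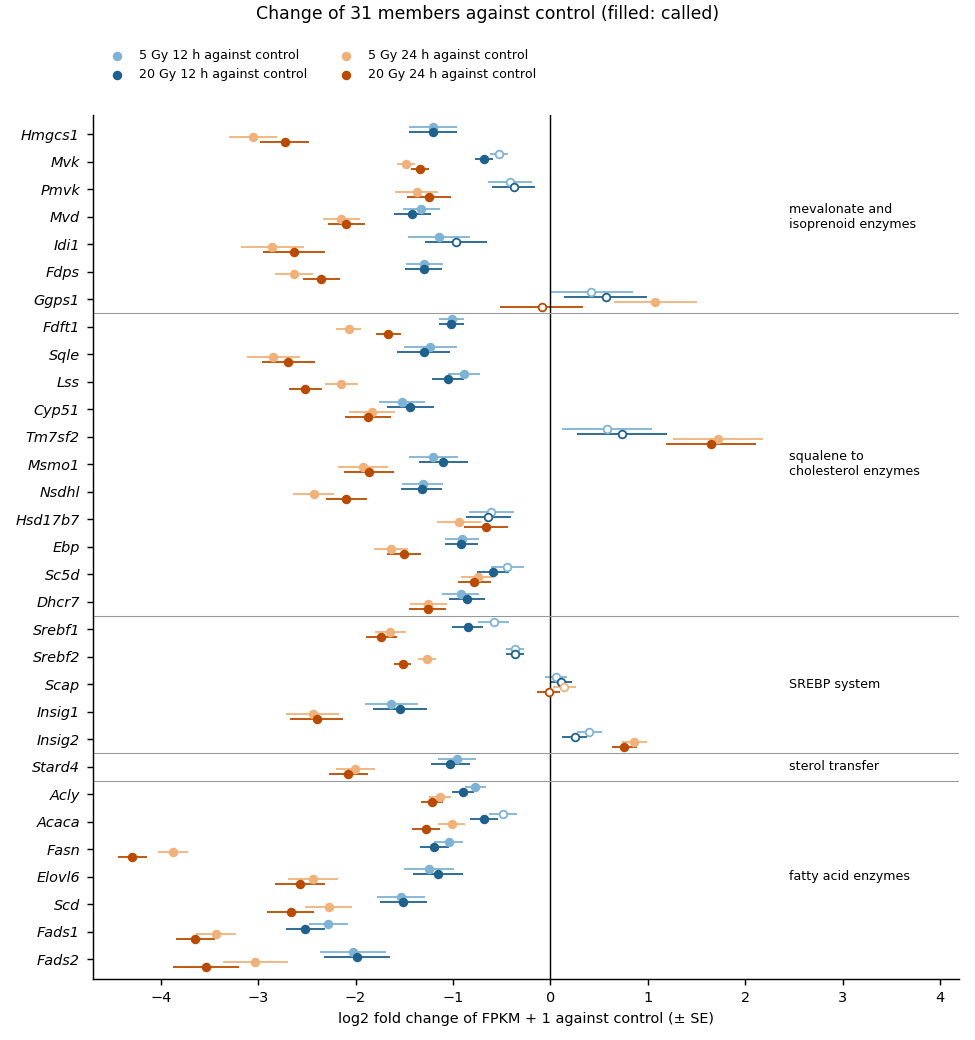
Log2 fold change of FPKM + 1 against control for the 31 genes tested (x axis, bars are ± 1 SE of the model, 3 libraries a group), grouped by role. Filled points were called. Nearly all points lie left of 0 and the 24 h points lie further left than the 12 h points, with Scap near 0 and Insig2 and Tm7sf2 to the right at 24 h.

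Because the genes moved together, the promoters of 6 with large falls that were called in all comparisons with control and over time are shown, chosen after their values were seen from those in the RefSeq promoter table. Each run is the 250 bases before the annotated start, 5′ to 3′ on the gene's strand, in RefSeq coordinates of GRCr8, and capitals mark a CCAAT box in either orientation. Fads1 lies at chr1:216252442-216252691 on the plus strand, Fads2 at chr1:216172034-216172283 on the minus strand, Hmgcs1 at chr2:53382054-53382303 on the plus strand, Scd at chr1:253231732-253231981 on the minus strand, Fdps at chr2:176804817-176805066 on the minus strand and Lss at chr20:12118231-12118480 on the minus strand.
Fads1: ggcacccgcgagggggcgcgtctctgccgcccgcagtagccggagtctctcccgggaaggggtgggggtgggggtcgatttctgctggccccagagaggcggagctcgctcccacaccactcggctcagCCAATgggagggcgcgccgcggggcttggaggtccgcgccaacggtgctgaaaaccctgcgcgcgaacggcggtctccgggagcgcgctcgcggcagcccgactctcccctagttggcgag
Fads2: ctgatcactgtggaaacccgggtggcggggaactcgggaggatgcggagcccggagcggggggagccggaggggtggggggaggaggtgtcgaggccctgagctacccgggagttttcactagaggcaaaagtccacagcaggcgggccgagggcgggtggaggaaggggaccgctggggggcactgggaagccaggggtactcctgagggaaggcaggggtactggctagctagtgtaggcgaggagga
Hmgcs1: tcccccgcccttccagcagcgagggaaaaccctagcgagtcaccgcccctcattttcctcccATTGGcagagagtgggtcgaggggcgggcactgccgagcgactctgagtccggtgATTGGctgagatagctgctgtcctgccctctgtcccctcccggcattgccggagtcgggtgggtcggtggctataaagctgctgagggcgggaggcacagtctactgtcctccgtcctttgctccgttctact
Scd: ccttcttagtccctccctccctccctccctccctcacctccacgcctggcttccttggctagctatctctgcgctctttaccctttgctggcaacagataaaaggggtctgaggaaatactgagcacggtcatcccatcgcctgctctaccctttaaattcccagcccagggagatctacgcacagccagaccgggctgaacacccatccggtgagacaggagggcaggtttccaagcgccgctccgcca
Fdps: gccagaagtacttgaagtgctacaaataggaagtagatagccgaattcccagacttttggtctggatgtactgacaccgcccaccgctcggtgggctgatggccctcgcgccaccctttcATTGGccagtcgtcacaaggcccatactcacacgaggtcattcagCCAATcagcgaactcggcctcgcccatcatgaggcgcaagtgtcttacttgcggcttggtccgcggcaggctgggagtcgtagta
Lss: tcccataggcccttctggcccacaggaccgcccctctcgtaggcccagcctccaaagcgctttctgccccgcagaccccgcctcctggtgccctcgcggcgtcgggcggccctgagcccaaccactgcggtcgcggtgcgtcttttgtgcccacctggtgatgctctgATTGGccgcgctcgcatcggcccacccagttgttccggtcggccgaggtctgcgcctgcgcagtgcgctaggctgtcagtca
The Hmgcs1 and Fdps promoters each held a pair of CCAAT boxes, which in Hmgcs1 began 188 and 133 bases before the start and in Fdps 130 and 85 bases. In Fads1 and Lss there was a single one, 121 and 82 bases before the start, and Fads2 and Scd had none in this window. The table held 26 promoters for 25 of the 32 genes, each of 250 bases before and 50 after the start. On both strands, CCAAT was found in 20 of the 26, or 76.9%, against 37.5% of all 33469 promoters in the table. The GC box GGGCGG was found in 21 of 26, or 80.8%, against 33.1% of all promoters and 62.6% of the 9984 promoters whose genes were tested. The E-box CACGTG was in 3 of 26, those of Insig1, Sc5d and Scap, against 6.42% of all promoters and 9.11% of those whose genes were tested. The sterol regulatory element was searched as TCACNCCAC, which was in 0 of 26 and in 1.12% of all promoters. Motifs can share letters at their ends (an SRE that runs into an E-box, for example), each was counted on its own, and a match is a description of the window only. Among the promoters of genes called lower in all 4 comparisons, 10 of 14 held a CCAAT box, and 10 of the other 12 did. The Scap promoter, whose gene did not change, had none, and neither did those of Cyp51, Dhcr7, Fads2 and Scd, which were called lower in all 4. The promoter of Insig2, which rose, held 1. Among the other 12 are promoters of Hsd17b7, Idi1, Mvk, Sc5d, Srebf1 and Srebf2, whose genes were called lower at 24 h after both doses. The counts therefore do not compare genes that fell with genes that did not, and a link to the box was not tested.

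The mevalonate and isoprenoid enzymes turn acetyl-CoA into the isoprenoid units of sterols. Of the 7 tested, 4 were called lower at 12 h with each dose (4.96% of all genes after 5 Gy and 3.64% after 20 Gy). In both 24 h groups 6 were lower (20.8% and 23.3%). Hmgcs1, the cytosolic HMG-CoA synthase that condenses acetyl-CoA with acetoacetyl-CoA, showed 82.6, 113 and 120.0 FPKM in the 3 control libraries, 53.6, 46.8 and 35.1 with 5 Gy and 62.0, 44.7 and 32 with 20 Gy at 12 h, and 9.93, 11.3 and 14.1 with 5 Gy and 15.1, 18.8 and 11.4 with 20 Gy at 24 h. Every 12 h library was below every control library and every 24 h library below every 12 h library. On the log2 scale, Hmgcs1 changed by -1.20 and -1.20 at 12 h and -3.05 and -2.73 at 24 h (5 Gy, then 20 Gy) (SE 0.25, limma adjusted p 0.00491, 0.00571, 4.41e-07 and 1.3e-06). Both 12 h calls were lost with the named transcript alone (-1.27 and -1.43, adjusted p 0.219 and 0.170) and with the top transcript (0.197 and 0.153), and unnamed transcripts carried 49.2% of its FPKM. The gene lies at chr2:52431601-52445055 in Rnor_6.0.

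Idi1, the isomerase that makes the allylic isoprenoid unit, had 17.9, 21.1 and 27.4 FPKM in the 3 control libraries, 11.3, 11.1 and 6.42 with 5 Gy and 16.5, 10.5 and 6.93 with 20 Gy at 12 h, and 1.63, 2.33 and 2.61 with 5 Gy and 2.44, 4.53 and 1.62 with 20 Gy at 24 h. The 3 tiers did not overlap, and at 12 h after 20 Gy the first library, at 16.5 FPKM, came close to the lowest control library. Its changes were -1.14 and -0.97 at 12 h and -2.85 and -2.63 at 24 h (5 Gy, then 20 Gy) (SE 0.32), and the one at 12 h after 20 Gy was not called (adjusted p 0.0565 in limma). The call at 12 h after 5 Gy was lost without the second or the third control library or the third exposed one (adjusted p 0.0625 to 0.107). Fdps, farnesyl diphosphate synthase, was the most abundant of these enzymes per length, at 240.3 ± 38.9 FPKM in the control (SD, n = 3). The values of Fdps were 196, 258 and 267 FPKM in the 3 control libraries, 114, 104 and 76.0 with 5 Gy and 117, 103 and 73.0 with 20 Gy at 12 h, and 38.1, 34.9 and 40.0 with 5 Gy and 51.7, 49.1 and 38.1 with 20 Gy at 24 h. The control, 12 h and 24 h libraries separated fully, and the control mean was 6.38 and 5.19 times that at 24 h (5 Gy, then 20 Gy), a log2 change of -2.63 and -2.35 (SE 0.19, limma adjusted p 2.01e-07 and 5.5e-07).

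Mvd, mevalonate diphosphate decarboxylase, was measured at 26.6, 36.9 and 35.4 FPKM in the 3 control libraries, 14.8, 11.3 and 11.5 with 5 Gy and 15.1, 10.5 and 9.75 with 20 Gy at 12 h, and 7.08, 5.00 and 8.07 with 5 Gy and 7.0, 6.07 and 7.60 with 20 Gy at 24 h. It was called lower in all comparisons with control, with log2 changes of -1.32 and -1.42 at 12 h and -2.14 and -2.10 at 24 h (5 Gy, then 20 Gy) (SE 0.19), and no 12 h library reached the control range or the 24 h range. Mvk, mevalonate kinase, lies on transcripts that were unnamed for 100% of its FPKM, and held 17.9, 20.7 and 19.4 FPKM in the 3 control libraries, 14.2, 13.1 and 12.0 with 5 Gy and 12.0, 12.4 and 10.7 with 20 Gy at 12 h, and 6.13, 5.88 and 6.82 with 5 Gy and 6.59, 7.03 and 7.54 with 20 Gy at 24 h. It formed the same tiers with smaller changes, -0.53 and -0.68 at 12 h and -1.48 and -1.33 at 24 h (5 Gy, then 20 Gy) (SE 0.0918), and missed the 1.5-fold limit at 12 h after 5 Gy. Pmvk, phosphomevalonate kinase, stood at 29.2, 32.3 and 35.0 FPKM in the 3 control libraries, 27.3, 23.9 and 20.6 with 5 Gy and 27.2, 26.5 and 20.3 with 20 Gy at 12 h, and 8.66, 14.5 and 12.9 with 5 Gy and 8.76, 16.9 and 14.5 with 20 Gy at 24 h. Its 12 h libraries were all below the control libraries although it was not called at 12 h (-0.41 and -0.38, adjusted p 0.225 and 0.289 in limma), and at 24 h it fell, with changes of -1.37 and -1.25 (SE 0.22, adjusted p 0.000160 and 0.000360). Its locus also holds Kcnn3, which was at 0.147 FPKM or less in each group mean.

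Ggps1, which makes geranylgeranyl diphosphate for protein prenylation and so lies off the route to sterols, was the exception. It was measured at 0.0170 to 4.07 FPKM, corresponding to as few as 3.94 reads in a library, and the 5 groups overlapped apart from 5 Gy at 24 h against control (1.24, 3.54 and 4.07 against 0.638, 0.730 and 0.933 FPKM). That comparison gave 1.08 (SE 0.43, limma adjusted p 0.0445), while 20 Gy at 24 h gave -0.09 (adjusted p 0.872). The call was lost under 5 other settings (adjusted p 0.0616 to 0.12) and without any one control library or without the second or the third exposed library (0.0704 to 0.149). The locus holds Tbce too, and most of its unnamed transcripts overlap Tbce only. Those over Ggps1 only had group means of 0.249 FPKM in the control, 0.485 and 0.110 at 12 h and 1.25 and 1.89 at 24 h (5 Gy, then 20 Gy), and those over both genes 0.266 to 1.57 FPKM.

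Acat2, the cytosolic thiolase at the head of the pathway, could not be followed. The transcripts with its name were at 0 except for 0.00408 FPKM in 1 control library, but its locus also holds Acat2l1 and unnamed transcripts, which cannot be assigned between the 2 genes. The unnamed transcripts of that locus had group means of 130.2 FPKM in the control, 46.9 and 44.4 at 12 h and 20.1 and 22.4 at 24 h (5 Gy, then 20 Gy). Those named Acat2l1 had 13.1, 3.02, 4.29, 1.20 and 2.11 FPKM in the same order of groups. They were described and not tested.

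**Figure D2:**
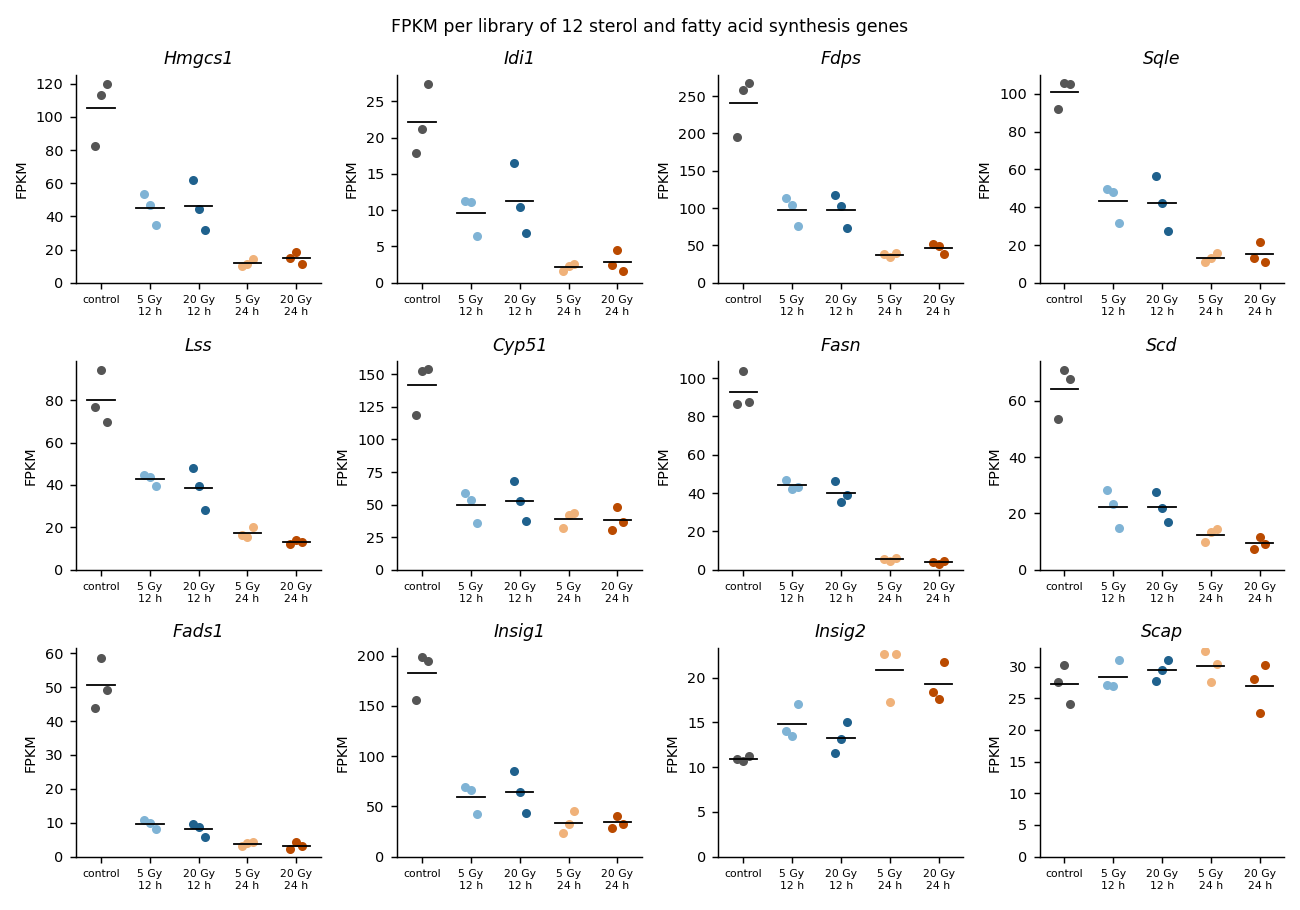
FPKM (y axis, from 0) of 12 genes in each of the 15 libraries (points) by group (x axis), with the group mean as a line. Hmgcs1, Fdps, Fasn and Fads1 form 3 tiers without overlap between control, 12 h and 24 h, whereas Scap stays between 22.6 and 32.4 FPKM in all groups.

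The enzymes from squalene to cholesterol fell in the same way but with a wider range of timing. Of the 11 tested, 8 and 9 were called lower at 12 h after 5 Gy and 20 Gy (4.96% and 3.64% of all genes). At 24 h, 10 were lower after each dose (20.8% and 23.3%). Fdft1, squalene synthase, had 59.5, 74.9 and 73.8 FPKM in the 3 control libraries, 36.9, 34.4 and 30.3 with 5 Gy and 39.3, 34.1 and 28.2 with 20 Gy at 12 h, and 15.4, 15.4 and 16.3 with 5 Gy and 21.4, 23.3 and 18.8 with 20 Gy at 24 h. The groups formed 3 separate tiers, and within the 24 h tier all 20 Gy libraries were above all 5 Gy libraries. Relative to control, the log2 changes of Fdft1 were -1.01 and -1.02 at 12 h and -2.07 and -1.66 at 24 h (5 Gy, then 20 Gy) (SE 0.13, limma adjusted p 0.000176, 0.000207, 4.73e-08 and 3.1e-07).

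Sqle, squalene epoxidase, which adds the oxygen needed for ring closure, gave 92.1, 105 and 105 FPKM in the 3 control libraries, 49.6, 48.3 and 31.6 with 5 Gy and 56.6, 42.1 and 27.3 with 20 Gy at 12 h, and 11.0, 13.2 and 15.7 with 5 Gy and 13.4, 21.6 and 11.0 with 20 Gy at 24 h. The third library was the lowest in both 12 h groups, but all 12 h libraries stayed above the 24 h range. The mean at 24 h was 7.58 times lower than the control after 5 Gy and 6.58 times lower after 20 Gy, and Sqle changed by -1.23 and -1.30 at 12 h and -2.84 and -2.69 at 24 h (5 Gy, then 20 Gy) (SE 0.27) with adjusted p of 1.89e-06 and 3.22e-06 at 24 h in limma. Lss, lanosterol synthase, closes the rings, and its libraries held 76.7, 94.2 and 69.5 FPKM in the 3 control libraries, 44.6, 43.9 and 39.4 with 5 Gy and 47.9, 39.7 and 28.4 with 20 Gy at 12 h, and 16.2, 15.4 and 20.3 with 5 Gy and 12.2, 13.9 and 13.1 with 20 Gy at 24 h. No tier overlapped the next, and its changes were -0.89 and -1.05 at 12 h and -2.15 and -2.52 at 24 h (5 Gy, then 20 Gy) (SE 0.17). From its most abundant transcript alone, Lss was called in none of the 6 comparisons, and the value at 12 h after 5 Gy was 0.91.

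Cyp51, lanosterol demethylase, fell early. It was measured at 119, 152 and 154 FPKM in the 3 control libraries, 58.7, 53.7 and 35.8 with 5 Gy and 68.4, 52.9 and 37.2 with 20 Gy at 12 h, and 32.2, 41.9 and 43.2 with 5 Gy and 30.6, 48.1 and 36.5 with 20 Gy at 24 h. Every exposed library lay below the control range, but the 12 h and 24 h libraries overlapped at both doses. Its changes were -1.52 and -1.44 at 12 h and -1.83 and -1.87 at 24 h (5 Gy, then 20 Gy) (SE 0.24), and the steps from 12 h to 24 h of -0.31 and -0.43 were not called (adjusted p 0.296 and 0.145 in limma). Dhcr7, which reduces 7-dehydrocholesterol to cholesterol in the last step, had the same timing, with 23.3, 34.1 and 30.2 FPKM in the 3 control libraries, 15.9, 14.0 and 14.5 with 5 Gy and 18.3, 16.2 and 12.6 with 20 Gy at 12 h, and 9.14, 12.0 and 13.9 with 5 Gy and 8.94, 12.9 and 13.1 with 20 Gy at 24 h. Its changes were -0.92 and -0.86 at 12 h and -1.25 and -1.26 at 24 h (5 Gy, then 20 Gy) (SE 0.19), and those between the times were not called.

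Msmo1, the sterol C4-methyl oxidase, had 112, 135 and 164 FPKM in the 3 control libraries, 72.1, 61.9 and 44.6 with 5 Gy and 82.9, 71.7 and 41.7 with 20 Gy at 12 h, and 29.6, 36.1 and 40.1 with 5 Gy and 34.6, 45.8 and 30.9 with 20 Gy at 24 h. It was below the control range in every exposed library while the times overlapped at 20 Gy. It was called in all 6 comparisons with control or over time, with -1.20 and -1.10 at 12 h and -1.92 and -1.86 at 24 h (5 Gy, then 20 Gy) against control (SE 0.25). The sum hid a shift between its 2 transcripts. The unnamed one was at a mean of 112.7 FPKM in the control and 0.971, 17.3, 19.2 and 0.886 in the 4 exposed groups, whereas the named one was at 24.5 FPKM in the control, 58.6 and 48.1 at 12 h and 16.1 and 36.2 at 24 h (5 Gy, then 20 Gy). With the named transcript alone, the change at 12 h was 1.21 with 5 Gy and 0.78 with 20 Gy, and with 20 Gy at 24 h it was 0.54, none of which was called, and at 24 h after 5 Gy it was -0.76, also not called.

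Nsdhl, the dehydrogenase that works with Msmo1 in removing the C4 methyl groups, showed 45.0, 53.9 and 58.0 FPKM in the 3 control libraries, 24.2, 21.3 and 16.4 with 5 Gy and 26.8, 20.0 and 15.3 with 20 Gy at 12 h, and 8.50, 9.16 and 8.88 with 5 Gy and 10.6, 15.4 and 9.06 with 20 Gy at 24 h. The exposed libraries were all under the control range, and at 24 h the second 20 Gy library, at 15.4 FPKM, reached the lowest 12 h value of 15.3. Its log2 changes were -1.31 and -1.32 at 12 h and -2.43 and -2.10 at 24 h (5 Gy, then 20 Gy) (SE 0.21). Ebp, the sterol isomerase, had 35.8, 45.2 and 52.4 FPKM in the 3 control libraries, 26.0, 22.8 and 20.5 with 5 Gy and 26.8, 24.2 and 18.4 with 20 Gy at 12 h, and 11.5, 13.4 and 15.8 with 5 Gy and 14.2, 17.5 and 13.2 with 20 Gy at 24 h, a set of 3 tiers without overlap, with changes of -0.90 and -0.91 at 12 h and -1.64 and -1.50 at 24 h (5 Gy, then 20 Gy) (SE 0.17). Both were called in all 4 comparisons with control and in both comparisons over time.

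Sc5d, the sterol C5-desaturase, and Hsd17b7, the 3-ketosteroid reductase of the pathway, changed least at 24 h among the sterol enzymes that fell. Sc5d was measured at 25.6, 29.9 and 32.8 FPKM in the 3 control libraries, 22.8, 22.8 and 18.6 with 5 Gy and 24.0, 20.9 and 13.9 with 20 Gy at 12 h, and 15.7, 16.7 and 19.0 with 5 Gy and 16.1, 18.7 and 15.2 with 20 Gy at 24 h. All exposed libraries were below the control range, with changes of -0.44 and -0.59 at 12 h and -0.74 and -0.78 at 24 h (5 Gy, then 20 Gy) (SE 0.17), of which the first was not called (adjusted p 0.0889 in limma) and the second was lost without the second or the third control library or the third exposed one (0.0867 to 0.113). Hsd17b7 held 5.39, 7.87 and 7.25 FPKM in the 3 control libraries, 5.03, 4.46 and 3.04 with 5 Gy and 6.16, 3.67 and 2.74 with 20 Gy at 12 h, and 2.58, 3.00 and 3.68 with 5 Gy and 3.75, 4.53 and 3.48 with 20 Gy at 24 h. One library at 12 h after 20 Gy, at 6.16 FPKM, lay within the control range, and the change was called only at 24 h, -0.93 after 5 Gy and -0.66 after 20 Gy (SE 0.23, limma adjusted p 0.00321 and 0.0229). From its named transcript alone, these were 0.20 and 0.47 and not called, and the call after 20 Gy was also lost without the second or the third control library or the first or the third exposed one (adjusted p 0.0578 to 0.0812).

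Tm7sf2, a sterol reductase, could be followed on its named transcript only in part. That transcript held 0.272, 0.121 and 0.0683 FPKM in the 3 control libraries, 1.20, 0.624 and 0.423 with 5 Gy and 0.395, 1.84 and 0.773 with 20 Gy at 12 h, and 3.85, 1.49 and 3.49 with 5 Gy and 0.480, 5.57 and 3.85 with 20 Gy at 24 h. The 24 h libraries exceeded all control libraries, and the first one after 20 Gy was low within its group. The log2 values against control at 24 h were 1.72 and 1.65 (5 Gy, then 20 Gy). They are given as a description, because Tm7sf2 passed the minimum of 0.5 FPKM only through the exposed groups in which it was high, with as few as 6.97 reads in a library. Unnamed transcripts that lie over Tm7sf2 and not over Vps51, the other gene of the locus, had group means of 11.6 FPKM in the control, 19.3 and 12.8 at 12 h and 13.1 and 10.1 at 24 h. Together with the named transcript, the level was 11.7 FPKM in the control, 20.0 and 13.8 at 12 h and 16.1 and 13.4 at 24 h, and this sum was not tested.

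The SREBP system divided into members that fell, 1 that rose and 1 that was level. Insig1, which retains the SREBP precursors when sterols are plentiful and is itself an SREBP target, was the most abundant, with 156, 199 and 195 FPKM in the 3 control libraries, 69.5, 65.8 and 42.6 with 5 Gy and 85.4, 64.0 and 43.0 with 20 Gy at 12 h, and 23.6, 32.7 and 45.3 with 5 Gy and 28.8, 40.3 and 32.8 with 20 Gy at 24 h. All exposed libraries were below the control libraries, while at 24 h the third 5 Gy library, at 45.3 FPKM, lay within the 12 h range. Insig1 fell by 3.09 and 2.85 times at 12 h and 5.40 and 5.39 times at 24 h in mean FPKM, which was -1.63 and -1.54 at 12 h and -2.44 and -2.40 at 24 h (5 Gy, then 20 Gy) on the log2 scale (SE 0.27, limma adjusted p 0.00127, 0.00223, 7.19e-06 and 8.86e-06).

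Insig2, its paralogue, rose. It had 10.9, 10.7 and 11.3 FPKM in the 3 control libraries, 14.0, 13.5 and 17.0 with 5 Gy and 11.6, 13.1 and 15.1 with 20 Gy at 12 h, and 22.6, 17.3 and 22.7 with 5 Gy and 18.4, 17.6 and 21.8 with 20 Gy at 24 h. Every 24 h library was above every 12 h library and all exposed libraries were above the control libraries. The change was called at 24 h, 0.86 after 5 Gy and 0.76 after 20 Gy (SE 0.13, limma adjusted p 8.14e-05 and 0.000253), and at 12 h it was 0.40 and 0.25, under the 1.5-fold limit. In mean FPKM, Insig1 was 183 against 10.9 for Insig2 in the control, and 33.9 against 20.9 at 24 h after 5 Gy. An unnamed transcript carried 53.4% of the FPKM of Insig2. Its rise at 24 h after 20 Gy was 0.36, under the fold limit, when only the most abundant transcript was used.

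Srebf2, the SREBP that mainly drives sterol synthesis, stood at 51.7, 55.3 and 46.9 FPKM in the 3 control libraries, 40.1, 40.0 and 39.0 with 5 Gy and 42.6, 39.4 and 36.8 with 20 Gy at 12 h, and 20.3, 21.2 and 20.5 with 5 Gy and 19.7, 17.1 and 15.2 with 20 Gy at 24 h. The 3 tiers did not overlap, yet the 12 h step was small, -0.36 and -0.37, and the calls were at 24 h, -1.27 and -1.52 (SE 0.0915, limma adjusted p 1.63e-07 and 3.97e-08). Srebf1, which mainly drives fatty acid synthesis, had 38.5, 36.4 and 27.3 FPKM in the 3 control libraries, 20.5, 20.3 and 26.3 with 5 Gy and 18.4, 18.2 and 18.2 with 20 Gy at 12 h, and 10.2, 9.19 and 11.0 with 5 Gy and 12.0, 7.49 and 9.21 with 20 Gy at 24 h. It was lower in every exposed library than in any control library, although the third 5 Gy library at 12 h, at 26.3 FPKM, was only just below the lowest control value of 27.3. Its changes were -0.58 and -0.85 at 12 h and -1.64 and -1.74 at 24 h (5 Gy, then 20 Gy) (SE 0.16), of which the first was under the 1.5-fold limit. Scap, the escort of the SREBPs, ranged from 22.6 to 32.4 FPKM over all 15 libraries, the groups overlapped, and its changes of -0.02 to 0.14 were not called (SE 0.11, adjusted p 0.296 to 0.899).

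Stard4, the sterol transfer protein, followed the enzymes. It held 9.68, 13.1 and 12.3 FPKM in the 3 control libraries, 6.28, 5.81 and 4.50 with 5 Gy and 6.80, 4.77 and 4.24 with 20 Gy at 12 h, and 2.00, 2.03 and 2.42 with 5 Gy and 1.61, 3.04 and 1.54 with 20 Gy at 24 h. The tiers were separate, with changes of -0.96 and -1.03 at 12 h and -2.0 and -2.07 at 24 h (5 Gy, then 20 Gy) (SE 0.20, limma adjusted p 0.00511, 0.00387, 2.51e-06 and 2.02e-06).

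The 7 fatty acid enzymes included the largest falls of the set, and none of them was called higher in any comparison. Of the 7, 6 and 7 were called lower at 12 h after 5 Gy and 20 Gy (4.96% and 3.64% of all genes), and 7 in both 24 h groups (20.8% and 23.3%). Fasn, fatty acid synthase, showed 86.4, 104 and 87.8 FPKM in the 3 control libraries, 47.0, 42.4 and 43.4 with 5 Gy and 46.2, 35.4 and 38.8 with 20 Gy at 12 h, and 5.50, 4.41 and 6.34 with 5 Gy and 3.92, 2.85 and 4.72 with 20 Gy at 24 h. The 12 h libraries all lay between the control range and the 24 h range, and no 24 h library was above 6.34 FPKM. The mean of Fasn was 2.09 and 2.31 times lower than control at 12 h and 17.1 and 24.2 times lower at 24 h (5 Gy, then 20 Gy). The log2 changes were -1.04 and -1.19 at 12 h and -3.87 and -4.29 at 24 h (5 Gy, then 20 Gy) (SE 0.15, limma adjusted p 0.000495, 0.000240, 1.21e-09 and 4.64e-10), and at 24 h after 20 Gy it ranked 7 from the lowest of the 17895 genes tested.

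Fads1, the delta-5 desaturase of polyunsaturated fatty acids, fell furthest by 12 h, with 43.9, 58.7 and 49.1 FPKM in the 3 control libraries, 10.9, 9.92 and 8.05 with 5 Gy and 9.71, 8.85 and 5.80 with 20 Gy at 12 h, and 3.11, 3.88 and 4.33 with 5 Gy and 2.25, 4.23 and 3.04 with 20 Gy at 24 h. No tier overlapped. The log2 changes were -2.28 and -2.52 at 12 h and -3.43 and -3.64 at 24 h (5 Gy, then 20 Gy) (SE 0.20, limma adjusted p 1.28e-05, 5.79e-06, 3.33e-08 and 2.09e-08), and at 12 h it ranked 27 and 15 from the lowest of all genes after 5 Gy and 20 Gy. Fads2, the delta-6 desaturase, is its neighbour on chromosome 1, at chr1:226114413-226152524 against chr1:226234074-226249138 in Rnor_6.0 and on the opposite strand. Fads2 had 71.8, 102 and 86.9 FPKM in the 3 control libraries, 26.3, 20.6 and 15.6 with 5 Gy and 29.3, 22.0 and 14.4 with 20 Gy at 12 h, and 5.94, 11.0 and 13.6 with 5 Gy and 4.13, 9.89 and 6.59 with 20 Gy at 24 h. Its tiers were separate too, and its changes were -2.03 and -1.98 at 12 h and -3.03 and -3.54 at 24 h (5 Gy, then 20 Gy) (SE 0.34). An unnamed transcript carried 96.2% of the FPKM of Fads2.

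Scd, stearoyl-CoA desaturase, which makes oleic acid, was measured at 53.6, 70.8 and 67.6 FPKM in the 3 control libraries, 28.2, 23.2 and 14.8 with 5 Gy and 27.5, 21.8 and 16.9 with 20 Gy at 12 h, and 9.73, 13.4 and 14.3 with 5 Gy and 7.19, 11.7 and 9.07 with 20 Gy at 24 h. The third library was the lowest in both 12 h groups, and it still lay above the 24 h range. Scd changed by -1.53 and -1.51 at 12 h and -2.28 and -2.67 at 24 h (5 Gy, then 20 Gy) (SE 0.25, limma adjusted p 0.000932, 0.00124, 5.04e-06 and 1.41e-06). Unnamed transcripts carried 63.4% of its FPKM, and with the named one alone Scd was called in none of the 6 comparisons (-0.80 to -1.85, adjusted p 0.0520 to 0.566). Elovl6, the elongase of palmitic acid, was the lowest of the fatty acid enzymes per length, with 7.63, 10.8 and 11.9 FPKM in the 3 control libraries, 4.39, 3.92 and 2.71 with 5 Gy and 6.47, 3.42 and 2.60 with 20 Gy at 12 h, and 0.746, 1.04 and 1.34 with 5 Gy and 0.561, 1.22 and 0.827 with 20 Gy at 24 h. It also formed 3 tiers, and changed by -1.25 and -1.16 at 12 h and -2.44 and -2.57 at 24 h (5 Gy, then 20 Gy) (SE 0.26).

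Acly and Acaca, which make the substrates of fatty acid synthase, fell least. Acly, ATP citrate lyase, supplies acetyl-CoA to both pathways, and it had 97.3, 129.97 and 111 FPKM in the 3 control libraries, 67.5, 65.7 and 63.0 with 5 Gy and 66.7, 59.6 and 53.3 with 20 Gy at 12 h, and 46.0, 49.5 and 56.5 with 5 Gy and 45.7, 49.1 and 48.3 with 20 Gy at 24 h. All exposed libraries were below control, and most of the fall was present at 12 h, with changes of -0.77 and -0.90 at 12 h and -1.14 and -1.22 at 24 h (5 Gy, then 20 Gy) (SE 0.11), so that the steps to 24 h of -0.37 and -0.32 were under the fold limit. Acaca, acetyl-CoA carboxylase, was at 41.7, 41.1 and 32.2 FPKM in the 3 control libraries, 23.4, 26.0 and 32.3 with 5 Gy and 24.5, 19.7 and 26.7 with 20 Gy at 12 h, and 16.5, 18.7 and 20.0 with 5 Gy and 16.4, 14.4 and 14.8 with 20 Gy at 24 h. The third library at 12 h after 5 Gy, at 32.3 FPKM, reached the lowest control library at 32.2, and the change there (-0.48) was not called. The other 3 changes, -0.68, -1.01 and -1.27 (SE 0.14), were called. Unnamed transcripts carried 94.5% of the FPKM of Acaca, and from the named ones alone the change at 12 h after 20 Gy was 0.11 and none of the 3 was called. The call at 12 h after 20 Gy was also lost without the second exposed library, at -0.56.

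Set side by side, the fatty acid enzymes fell somewhat further than the sterol enzymes in the summed values. The median log2 fold change was -0.97 and -0.99 for the 18 sterol enzymes and -1.25 and -1.19 for the 7 fatty acid enzymes at 12 h after 5 Gy and 20 Gy. At 24 h it was -1.88 and -1.76 for the sterol enzymes and -2.44 and -2.67 for the fatty acid enzymes. The mean of log2(FPKM + 1) over the sterol enzymes minus that over the fatty acid enzymes was -0.73 to -0.52 in the control libraries, -0.23 to -0.08 and -0.13 to 0.04 at 12 h, and 0.19 to 0.30 and 0.40 to 0.65 at 24 h (5 Gy, then 20 Gy). The control, 12 h exposed and 24 h exposed libraries did not overlap in this difference, and no test was made on it because the lists were chosen with results known. The sterol list includes Tm7sf2, which passed the minimum only through the exposed groups, and Ggps1, which had few reads. At 24 h these changed by 1.72 and 1.65 and by 1.08 and -0.09 (5 Gy, then 20 Gy). They make the sterol mean fall less and so widen the shift, whose size without them was not computed. The size of the gap rested on which transcripts were summed. With only the named transcripts, the difference between the medians at 24 h was 0.01 after 5 Gy and 0.26 after 20 Gy, in place of 0.56 and 0.90, and at 12 h it was -0.10 and -0.05 in place of 0.28 and 0.20. With a pseudocount of 0.1 it was 1.25 and 1.64 at 24 h.

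**Figure D3:**
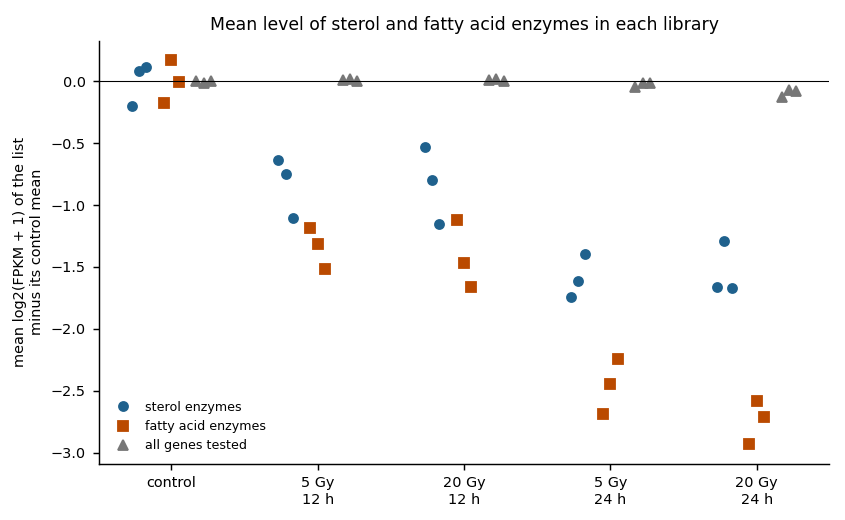
Mean log2(FPKM + 1) of 18 sterol enzymes, 7 fatty acid enzymes and all 17895 genes tested in each library (y axis, relative to the mean of the 3 control libraries), by group (x axis). Each point is 1 library. Both lists step down at 12 h and again at 24 h, the fatty acid list further, while the mean over all genes stays within 0.13 of 0. The sterol list includes Tm7sf2 and Ggps1, which make its mean fall less.

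The share of the 24 h fall that was already present at 12 h differed between genes. For the 16 sterol enzymes other than Ggps1 and Tm7sf2, the median share was 51.5% after 5 Gy (30.2% to 83.1%) and 59.8% after 20 Gy (30.1% to 95.6%). For the 7 fatty acid enzymes it was 66.4% (27% to 67.8%) and 56.1% (27.7% to 74.0%). Cyp51 was an early gene, with 83.1% and 76.9%, as was Dhcr7 with 73.3% and 68.1%. Fasn was late, with 27% and 27.7%, as were Pmvk with 30.2% and 30.1% and Srebf2 with 28.3% and 24.1%. These shares use the 12 h libraries in both steps and are given without a test. From 12 h to 24 h, the calls of Msmo1, Insig1, Scd and Fads2 after 5 Gy were lost when the first library of the 12 h or of the 24 h group was left out, or the second of the 12 h group (adjusted p 0.0527 to 0.111), and for Msmo1 and Insig1 also without the second of the 24 h group (0.0542 and 0.0541). After 20 Gy, leaving out the first 12 h library put Mvd, Fdft1, Msmo1, Nsdhl, Ebp and Acaca under the fold limit, at -0.48 to -0.58, and ended the call of Insig1 (-0.63, adjusted p 0.0847). Other single libraries of the 20 Gy groups also ended calls of Fdft1, Msmo1, Ebp, Insig1 and Acaca, at -0.50 to -0.75. Within the 12 h groups, the third library was the lowest for 24 of 31 genes after 5 Gy and for 24 after 20 Gy, and for 22 genes in both. Leaving out any single library gave 19 to 21 genes called at 12 h after 5 Gy and 22 to 25 after 20 Gy.

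**Figure D4:**
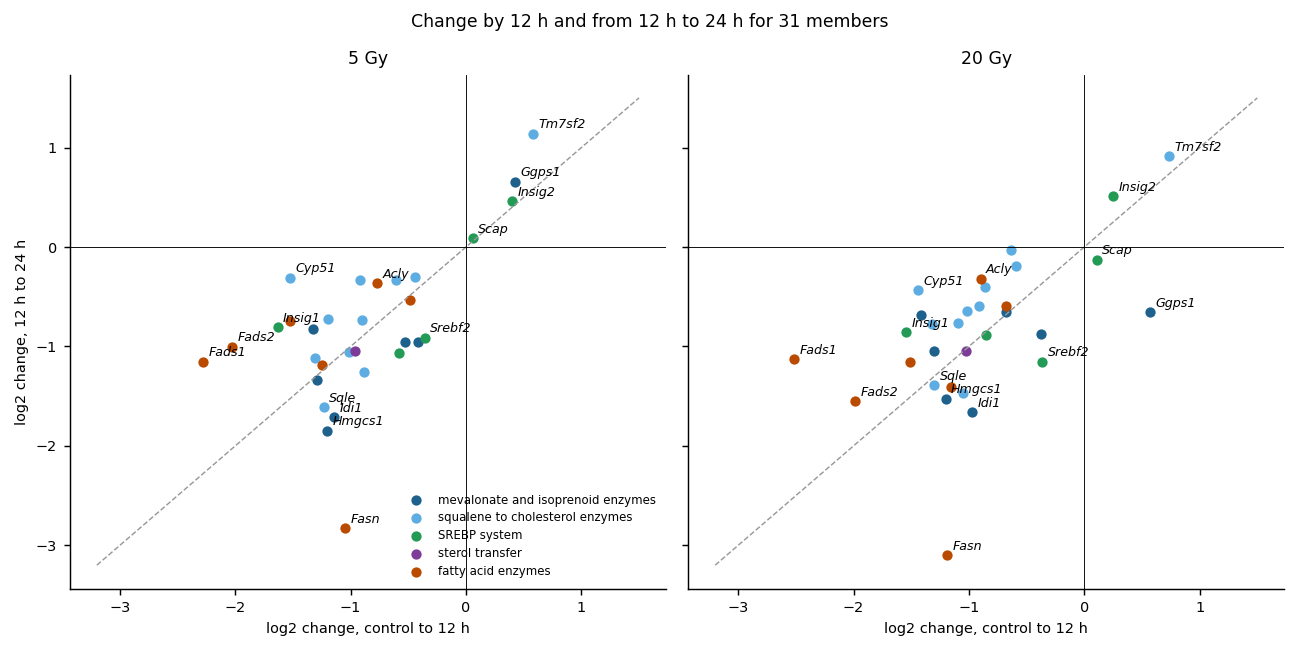
Log2 change from control to 12 h (x axis) and from 12 h to 24 h (y axis) of the 31 genes after 5 Gy (left) and 20 Gy (right), coloured by role, with the dashed line where both steps are equal. Fasn lies far below the line, with -2.83 and -3.10 in the second step, and Cyp51 above it, with -0.31 and -0.43. Both axes use the 12 h libraries.

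No gene of the set was called between the doses. Comparing 20 Gy with 5 Gy, 0 of the 31 genes were called at 12 h, against 0.123% of all genes, and 0 at 24 h, against 2.42%, in limma. With the unadjusted p and the same fold limit, 0 genes were called at 12 h and 1 at 24 h, Ggps1. For the 30 genes other than Ggps1, the difference lay between -0.27 and 0.17 at 12 h and between -0.51 and 0.41 at 24 h on the log2 scale. The 95% interval of the difference was within 1 of 0 for 29 of these 30 genes at 12 h and for 28 at 24 h. The lowest p-values at 24 h belonged to Fdft1, higher after 20 Gy by 0.41 (95% interval 0.13 to 0.68, adjusted p 0.0953 in limma), and to Fasn, lower by 0.42 (interval -0.75 to -0.09, adjusted p 0.145). The change from 12 h to 24 h did not differ between the doses for any gene at an adjusted p below 0.05, against 0.553% of all genes, with a lowest adjusted p of 0.355 over the 31, and 3 genes had an unadjusted p below 0.05.

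Other genes of lipid metabolism were read from lists that hold none of the genes above. Among 11 tested sterol and prenyl enzymes outside the set, 3 and 2 were called lower at 12 h after 5 Gy and 20 Gy (4.96% and 3.64% of all genes). At 24 h, 4 were lower (20.8%) and 1 higher (20.5%) after 5 Gy, and 5 lower (23.3%) after 20 Gy. Erg28, a scaffold of the C4 demethylation complex, went from 13.9 FPKM to 4.71 and 5.23 at 24 h. The median change of this list at 24 h was -0.52 and -0.56.

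Of the 12 genes of SREBP processing and sterol sensing, none was called at 12 h at either dose in limma (with the unadjusted p, 0 after 5 Gy and 1 higher after 20 Gy), with 4 lower and 3 higher at 24 h after 5 Gy and 3 and 3 after 20 Gy. Over all genes, 20.8% were lower and 20.5% higher after 5 Gy and 23.3% and 17.0% after 20 Gy, and in lists of 10 to 12 genes the counts here and for uptake and triglyceride storage are not read as different from these. Prkaa2, among those higher at 24 h, had a mean of 0.227 FPKM in the control and 1.20 and 1.54 at 24 h (5 Gy, then 20 Gy). It passed the minimum of 0.5 FPKM only through the 24 h groups, so its place in these counts supports nothing. Mbtps1, the site-1 protease that cleaves the SREBPs, had group means of 64.4, 66.7, 66.7, 33.1 and 29.5 FPKM (control, then 5 Gy and 20 Gy at 12 h, then 5 Gy and 20 Gy at 24 h, the order used for the means that follow) and changed by -0.94 and -1.10 at 24 h (limma adjusted p 9.74e-07 and 2.6e-07). Fbxw7, a ubiquitin ligase subunit that targets nuclear SREBPs, rose from 1.83 FPKM in the control to 14.8 at 24 h after each dose (2.48 and 2.47, adjusted p 1.67e-07 and 1.85e-07).

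Of the 10 genes tested of the LXR, oxysterol and efflux list, 1 was called higher at 12 h after each dose (4.98% and 4.90% of all genes). At 24 h, 4 were higher (20.5%) and 1 lower (20.8%) after 5 Gy, and 3 higher (17.0%) and 1 lower (23.3%) after 20 Gy. In a list of 10 genes these counts are not read as different from the shares over all genes. Abca1, the cholesterol exporter, had group means of 6.33, 18.3, 28.1, 41.2 and 55.4 FPKM, a change of 1.40 and 1.96 at 12 h and 2.52 and 2.94 at 24 h (limma adjusted p 0.000182, 1.56e-05, 1.4e-07 and 4.12e-08). Soat1, which esterifies cholesterol, was called higher at 24 h, by 0.75 and 0.89. Abcg4, another sterol exporter, had group means of 0.373, 0.848, 0.814, 3.13 and 2.53 FPKM, with log2 values of 1.59 and 1.34 at 24 h. They are given as a description, because Abcg4 passed the minimum of 0.5 FPKM only through the exposed groups. Its place among the genes counted higher at 24 h supports nothing.

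At 12 h (5 Gy, then 20 Gy), 1 and 0 of 10 genes of sterol uptake and trafficking were called lower in limma, or 1 and 1 with the unadjusted p. Of 19 genes of fatty acid elongation, activation and regulation, 2 and 3 were lower at 12 h. None of either list was higher. Over all genes, 4.96% and 3.64% were lower and 4.98% and 4.90% higher. Of 10 genes of sterol uptake and trafficking, 3 were lower and 2 higher at 24 h after 5 Gy, and 2 lower and 3 higher after 20 Gy. They include Gramd1a and Stard5, both sterol carriers, up by 1.28 and 1.48 and by 1.27 and 1.38, and the receptor Lrp1 at -0.89 and -1.33 on the log2 scale. Of 19 genes of fatty acid elongation, activation and regulation, 8 were lower (20.8% of all genes) and 1 higher (20.5%) at 24 h after 5 Gy. After 20 Gy, 9 were lower (23.3%) and 1 higher (17.0%). Scd2, a second stearoyl-CoA desaturase and more abundant here than Scd, had group means of 854, 509, 514, 308 and 292 FPKM. Mid1ip1, an activator of acetyl-CoA carboxylase, fell by 1.80 and 1.85 at 24 h, and the elongase Elovl4 rose by 0.73 and 1.07.

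Of 11 fatty acid oxidation genes, 1 was called higher in each comparison with control, Pdk4, and 1 was lower at 24 h after 20 Gy, Acadvl. Over all genes, 4.90% to 20.5% were called higher in these comparisons, and 23.3% lower at 24 h after 20 Gy. Pdk4, which turns pyruvate away from acetyl-CoA, had group means of 1.30, 7.58, 7.64, 12.3 and 33.2 FPKM and changes of 2.53 and 3.88 at 24 h (limma adjusted p 9.67e-08 and 2.96e-09). Of 12 genes of triglyceride storage and lipid droplets, none was called at 12 h at either dose in limma (with the unadjusted p, 1 lower after 5 Gy and 0 after 20 Gy), 2 were lower and 3 higher at 24 h after 5 Gy, and 3 lower and 2 higher after 20 Gy, among them Lpin1, a phosphatidate phosphatase, at 1.62 and 1.59. At 24 h with 5 Gy and with 20 Gy, the median log2 change was -0.30 and -0.32 for SREBP processing and sensing, 0.35 and 0.27 for LXR and efflux, and 0.30 and -0.08 for uptake and trafficking. It was -0.43 and -0.50 for fatty acid elongation and activation, -0.11 and -0.07 for oxidation and -0.07 and -0.16 for triglyceride storage, where all genes had -0.05 and -0.14.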

How the data were processed

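Per the labels and the study's methods, the authors trimmed the reads with Trimmomatic, mapped them to Rnor_6.0 with HISAT2 (2.0.13 in the submitters' processing notes) and assembled and quantified transcripts with StringTie, and the deposited table holds 1 FPKM value per transcript and library. FPKM were used as deposited, without rescaling. The table held 85322 transcripts in 40272 loci, of which 909 loci carried several gene names. Transcripts were summed per gene, giving 37367 genes, and 4738 transcripts were not assigned. FPKM can be split between transcripts of a locus by the assembler, so sums, named transcripts and the top transcript were compared. The list of genes, their roles, the other lists and the tests were chosen with earlier results of these data known.

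Genes with a mean FPKM of at least 0.5 were fitted on log2(FPKM + 1) with limma 3.58.1 in R 4.3.3, with all 15 libraries in 5 group means, leaving 10 residual degrees of freedom, and with moderated variances that follow expression. Fold changes on this scale understate those of low genes. P-values are two-sided and adjusted over 17895 genes. A two-sided exact permutation test of 3 against 3 libraries cannot go below 0.1 and was not used for calls. The procedure was tested on simulated data. Genes were described per library if called in at least 2 of the 8 comparisons, and genes outside the set were named only from lists, at most the 3 called genes of each with the largest change from 12 h to 24 h. Depth was estimated from low FPKM of 600 transcripts per library, 61.7% to 70.3% of which were whole multiples of 1 step within 0.1, against 20.0% to 20.7% for other steps. Promoters were taken from a RefSeq table of GRCr8, and gene positions from the deposited file. Alternatives were a pseudocount of 0.1, other minima, quantile normalization, TPM, fits of the compared groups only, no variance trend, a replicate block, other thresholds, other rows, and leaving out each library. Kallisto is also named in the processing notes, and no counts were analysed here.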

Additional observations from a re-analysis of the deposited data

How the results depend on the processing

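Replicate numbers were not taken to pair the libraries, since deviations of libraries with the same number correlated over 0.1 in 4 of 30 pairs (-0.18 to 0.23 in all). Between the doses at one time they were positive, 0.05 to 0.23 at 12 h and 0.06 to 0.16 at 24 h, with 2 of 3 and 1 of 3 pairs over 0.1. With the number as a block, the genes called were 20 and 23 at 12 h, 29 and 29 at 24 h (5 Gy, then 20 Gy against control), 21 and 22 over time, and 0 in each dose comparison. The call of Ggps1 at 24 h after 5 Gy was the one lost.

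Counts of called genes at 12 h moved with the transcripts that were summed. With named transcripts only, or the most abundant transcript only, 11 genes were called in both cases at 12 h after 5 Gy and 12 in both after 20 Gy, and named transcripts gave 14 from 12 h to 24 h after 20 Gy. A 2-fold limit gave 13 and 12 over time after 5 Gy and 20 Gy. With p unadjusted, 1 gene was called between doses at 24 h and 3 in the change over time. Directions turned for Msmo1 under both transcript choices, to 1.21 and 0.78 at 12 h and 0.54 at 24 h after 20 Gy, for Hsd17b7 under both, to 0.20 and 0.47 at 24 h, for Lss with the top transcript, to 0.91 at 12 h after 5 Gy, and for Acaca with named transcripts, to 0.11 at 12 h after 20 Gy. The cause was not tested. Leaving out a library gave 19 to 21 and 22 to 25 genes at 12 h, 29 to 30 and 28 to 29 at 24 h, 17 to 22 and 15 to 23 over time, and 0 between doses. Over single genes and all settings, 4961 values kept their direction and side of the threshold, 173 lost the call, 31 gained one and 12 turned.

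The sterol minus fatty acid difference of medians was less stable. At 12 h after 5 Gy it was 0.45 with a pseudocount of 0.1, 0.40 with quantile normalization, -0.10 with named and 0.053 with top transcripts. At 12 h after 20 Gy these were 0.30, 0.30, -0.049 and 0.00014. At 24 h after 5 Gy they were 1.25, 0.67, 0.0057 and 0.40, with 0.97 as TPM, and at 24 h after 20 Gy they were 1.64 with the pseudocount, 1.25 as TPM, 0.26 with named and 0.49 with top transcripts. Over time, named and top transcripts gave -0.0178 and -0.0833 after 5 Gy and 0.26 and 0.31 after 20 Gy. Between doses at 24 h, named transcripts gave 0.24. Leaving out a library gave 0.16 to 0.33 and 0.11 to 0.39 at 12 h, 0.52 to 0.60 and 0.81 to 1.00 at 24 h, -0.12 to 0.26 and 0.33 to 0.61 over time, and 0.011 to 0.22 and 0.20 to 0.42 between doses. The FPKM carry no counts, so no interval from depth was given. With 3 libraries a group, the 95% intervals of the dose differences reached from -1.23 to 1.16 on the log2 scale over both times for genes other than Ggps1, and -2.09 for Ggps1 at 24 h.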
